A study of Mus musculus with 26 samples.

Results

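The thioredoxin system, the peroxiredoxins, sulfiredoxin and the quinone reductase Nqo1 were followed here as a set of 10 genes. The genes were Txn1, Txnrd1, Srxn1, Nqo1 and Prdx1 to Prdx6. They were taken by symbol, as a set picked with earlier results of these data known, from 20430 genes in the RNA tables and 19941 in the footprint tables, and all 10 were present in both and passed the filter on low counts in every fit. The cells were NIH3T3, an established line of mouse embryonic fibroblasts, for which the labels give no transgene and no dose. PolyA-selected RNA was sequenced in 16 libraries, and ribosome footprints, the stretches of mRNA covered by ribosomes, in 10. The heat experiment compared its own control with 44 °C for 2 h and 42 °C for 8 h, by RNA. The other experiment compared a shared control with oxidative stress by H2O2 and osmotic stress by KCl, each for 2 h and for 7 h, by RNA and by footprints. Each of the 13 groups held 2 libraries, which the labels call replicates without saying whether they came from separate cultures, so the p-values measure the spread between these libraries.

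Peroxiredoxins reduce hydrogen peroxide and organic peroxides through a reactive cysteine. Prdx1 and Prdx2 are mainly cytosolic, Prdx3 is mitochondrial, Prdx4 lies in the secretory pathway, Prdx5 is found in several compartments including mitochondria and peroxisomes, and Prdx6 takes its electrons from glutathione. The cysteine of Prdx1, Prdx2, Prdx3 and Prdx5 is regenerated by thioredoxin (cytosolic form Txn1). Thioredoxin is in turn reduced by the NADPH-dependent selenoprotein thioredoxin reductase (cytosolic form Txnrd1). Srxn1, sulfiredoxin, repairs peroxiredoxins whose cysteine has been over-oxidised, and Nqo1 reduces quinones with NADH or NADPH. Several of these genes, Srxn1, Txnrd1 and Nqo1 among them, are textbook targets of NRF2, a transcription factor that binds the antioxidant response element.

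Positions are those of RefSeq genes on GRCm38.p6, the assembly that mm10, named in the submitters' processing notes, is built on. Txnrd1 lies at chr10:82833951-82897724, Srxn1 at chr2:152105524-152111376, Nqo1 at chr8:107388225-107403205 and Txn1 at chr4:57943373-57956411, and all 10 genes are annotated as protein coding. Prdx1 lies at chr4:116685599-116700000, Prdx2 at chr8:84969622-84974811 and Prdx3 at chr19:60864066-60874538. Prdx4 lies at chrX:155323918-155342272, Prdx5 at chr19:6906697-6910106 and Prdx6 at chr1:161240112-161251210.

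Promoter sequences were read because Txnrd1, Srxn1 and Nqo1 had the largest RNA changes of the set at 7 h of H2O2 while their timing differed. RefSeq promoter windows, from 250 bases before to 50 after a gene's start (300 bases in all), were matched for 9 of the 10 genes, as 11 windows since Txnrd1 has 3 annotated starts. Both strands were searched for the core of the antioxidant response element, TGACNNNGC, and for the AP-1 site, TGANTCA, whose letters can overlap it. Windows of 3 genes held the first motif (Srxn1, Txnrd1 and Prdx1), windows of 2 genes held the second (Srxn1 and Prdx1), and those of 6 genes held neither. Of all 32851 windows, 12.4% held the first motif and 7.81% the second. These shares are by window, while the members were counted by gene, with 3 windows for Txnrd1. The upstream 250 bases of 4 genes are shown, each 5′ to 3′ on the strand of the gene, with matched bases in capitals: Srxn1 (chr2:152105274-152105523, plus strand), the start of Txnrd1 that has a match (chr10:82858956-82859205, plus strand), Prdx1 (chr4:116685349-116685598, plus strand) and Nqo1 (chr8:107403206-107403455, minus strand).
Srxn1: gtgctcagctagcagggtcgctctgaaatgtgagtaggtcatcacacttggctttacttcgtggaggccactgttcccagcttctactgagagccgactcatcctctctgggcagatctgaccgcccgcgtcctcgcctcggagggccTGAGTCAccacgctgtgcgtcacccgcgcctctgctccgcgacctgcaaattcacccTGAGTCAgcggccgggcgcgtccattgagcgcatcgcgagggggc
Txnrd1: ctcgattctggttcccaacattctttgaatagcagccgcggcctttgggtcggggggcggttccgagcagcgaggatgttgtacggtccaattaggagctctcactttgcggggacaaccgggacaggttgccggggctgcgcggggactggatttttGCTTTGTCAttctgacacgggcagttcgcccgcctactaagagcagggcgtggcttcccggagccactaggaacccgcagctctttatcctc
Prdx1: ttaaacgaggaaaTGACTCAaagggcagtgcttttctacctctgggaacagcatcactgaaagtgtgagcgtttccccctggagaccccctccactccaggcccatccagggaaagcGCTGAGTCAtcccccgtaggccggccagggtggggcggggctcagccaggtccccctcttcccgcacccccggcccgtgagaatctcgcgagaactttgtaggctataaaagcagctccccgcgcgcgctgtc
Nqo1: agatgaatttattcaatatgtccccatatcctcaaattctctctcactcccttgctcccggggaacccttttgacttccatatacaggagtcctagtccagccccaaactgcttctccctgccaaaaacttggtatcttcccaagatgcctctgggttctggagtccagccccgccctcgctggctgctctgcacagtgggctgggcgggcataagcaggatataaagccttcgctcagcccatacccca
Srxn1 carried AP-1 matches that began 102 and 45 bases upstream of its start, and a match to the response element core 28 bases downstream of it, outside the stretch shown. The Txnrd1 window had a core match on the opposite strand, 92 bases upstream, while the windows of its other starts held neither motif. In Prdx1 a core match on the opposite strand 133 bases upstream overlapped an AP-1 match, and a further AP-1 match lay 237 bases upstream. The Nqo1 window held neither set of letters. Sequence outside the windows was not searched, so sites farther from a start would not be seen. These matches describe letters in a window and were not tested against the expression values.

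Levels were compared between genes on TPM, the authors' deposited unit, which divides by transcript length. In the RNA control of the H2O2/KCl experiment, Prdx1 stood highest at 940 ± 75.1 TPM (SD, n = 2), followed by Txn1 at 733 ± 9.04 TPM. Prdx5 (302 ± 27.9 TPM), Prdx2 (289 ± 22.1 TPM), Prdx4 (272 ± 35.4 TPM) and Txnrd1 (264 ± 16.3 TPM) came next, and the libraries of each of these neighbours overlapped those of the next. Prdx3 followed at 109 ± 7.99 TPM, Nqo1 at 72.7 ± 4.42 TPM, Prdx6 at 58.1 ± 0.184 TPM and Srxn1 at 49.9 ± 1.41 TPM, and none of these 4 overlapped its neighbours in the order. The 10 genes together made up 0.316% and 0.302% of all RNA TPM in the control libraries, and 0.486% and 0.448% of all footprint TPM.

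The order was not the same in footprints. Prdx6 had 170 and 155 TPM in footprints of control cells against 58.2 and 58.0 in RNA, a ratio of mean footprint TPM to mean RNA TPM of 2.80. That ratio was above those of 96.2% of 10467 genes. Txn1 had a ratio of 2.07, Prdx1 of 1.90, Prdx2 of 1.41, Prdx3 of 1.36 and Prdx4 of 0.92, against a median of 0.64 over all these genes. Txnrd1 was at 0.83, above that median, while Srxn1 at 0.55 and Nqo1 at 0.43 were below it, and Prdx5 was lowest of the 10 at 0.39. A ratio of TPM values also carries how each kind of library was made, so it is not a rate. Counts scaled to library size (CPM, described below) gave another order. Control means in RNA and footprints were 112 and 197 CPM for Prdx4, and 61.5 and 91.6 CPM for Prdx6. They were 106 and 69.3 CPM for Prdx5, and 62.8 and 11.2 CPM for Srxn1. By CPM, Prdx4 thus stood above Prdx6 in this ratio, and Srxn1 below Prdx5. The ranks given hold for TPM only, and the rank among all genes was not computed on CPM.

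**Figure D1:**
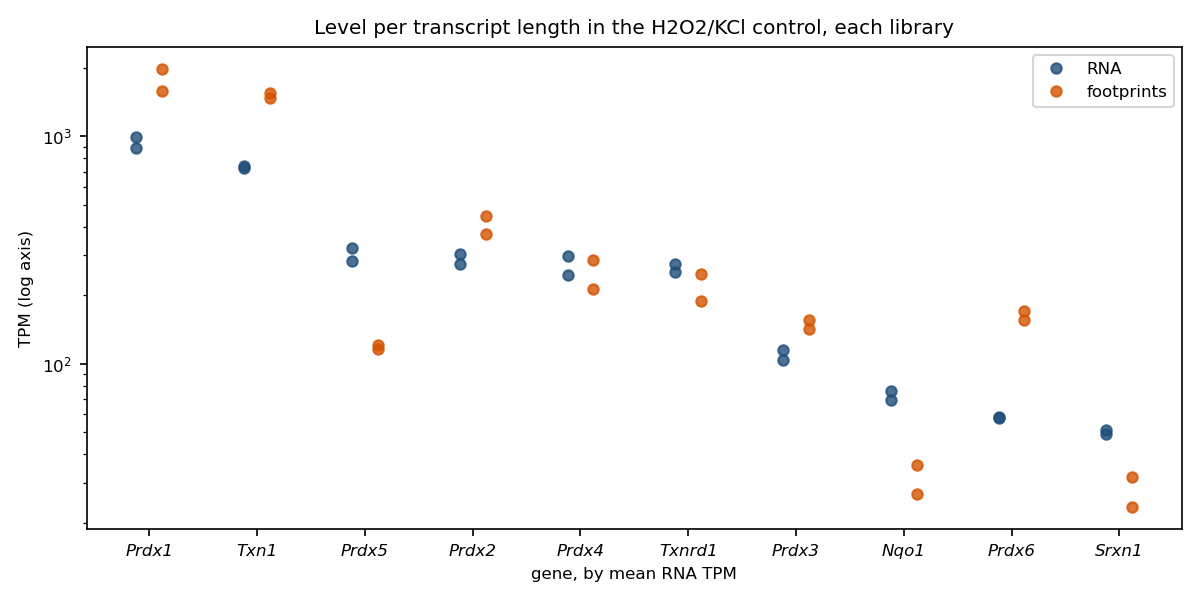
TPM on a log axis of the 10 genes in the H2O2/KCl control, each point a library (2 RNA in blue, 2 footprint in orange), genes ordered by mean RNA TPM. Footprint points lie above RNA points for Prdx6, Txn1, Prdx1, Prdx2 and Prdx3, and below them for Prdx5, Nqo1, Srxn1 and, in both libraries, Txnrd1.

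From here, values of a gene across libraries are CPM, counts scaled to library size after TMM normalization within an experiment and kind of library, so they are compared within an experiment. A change was called where the Benjamini-Hochberg adjusted p of the edgeR quasi-likelihood F test, over all genes tested, was under 0.05. Fold changes are log2 with the standard error (SE) of the fit. They are relative to the other genes of a library, so a change shared by all genes would not show.

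H2O2 raised the RNA of Txnrd1 and Srxn1 within 2 h, and that of Nqo1 between 2 h and 7 h. Txnrd1 had 392 and 423 CPM in the control, 1222 and 1163 CPM at 2 h, and 1443 and 1569 CPM at 7 h. Both durations lay far above the control without overlap, by 2.92-fold at 2 h (log2 1.55, SE 0.06, adjusted p = 1.7e-10) and 3.69-fold at 7 h (log2 1.88, SE 0.06, adjusted p = 5.53e-12). Srxn1 rose from 64.4 and 61.3 CPM to 218 and 193 CPM at 2 h, and to 246 and 244 CPM at 7 h. Its change was 3.27-fold at 2 h (log2 1.71, SE 0.07, adjusted p = 1.07e-10) and 3.90-fold at 7 h (log2 1.96, SE 0.07, adjusted p = 6.28e-12), and neither duration overlapped the control.

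Nqo1 had the other time course. It had 51.4 and 46.7 CPM in the control and 53.5 and 50.0 CPM at 2 h, which overlapped (log2 0.08, SE 0.08, adjusted p = 0.469). At 7 h it had 219.5 and 189.8 CPM, clear of every other library, 4.17-fold above the control (log2 2.06, SE 0.08, adjusted p = 2.82e-11). Tested directly, 7 h against 2 h of H2O2 gave a log2 difference of 1.98 for Nqo1 (SE 0.08, adjusted p = 5.21e-11), 0.34 for Txnrd1 (SE 0.06, adjusted p = 0.000229) and 0.25 for Srxn1 (SE 0.07, adjusted p = 0.00282). The Srxn1 difference between durations lost its call without H2O2 2 h replicate 2 (log2 0.17, adjusted p = 0.0622).

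The peroxiredoxins moved less under H2O2. Prdx6 had the largest change among them: 62.0 and 61.1 CPM in the control, 71.8 and 69.8 CPM at 2 h, and 109 and 104 CPM at 7 h, with no overlap between the 3 groups. Its log2 fold change was 0.20 at 2 h (SE 0.06, adjusted p = 0.0158) and 0.80 at 7 h (SE 0.06, adjusted p = 5.05e-08). Prdx1, the most abundant, had 611 and 539.9 CPM in the control, 620.4 and 604 CPM at 2 h, and 701 and 688 CPM at 7 h, where the rise was called (log2 0.27, SE 0.06, adjusted p = 0.00148). Prdx2 went down, from 190.03 and 169.5 CPM to 157 and 149 CPM at 2 h (log2 -0.23, SE 0.07, adjusted p = 0.0106) and 144 and 135 CPM at 7 h (log2 -0.37, SE 0.07, adjusted p = 0.000258).

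Among the rest, Txn1 was lower at 2 h (276 and 288 CPM against 323 and 325 CPM, log2 -0.20, SE 0.07, adjusted p = 0.0198) and higher at 7 h (379.6 and 378 CPM, log2 0.23, SE 0.07, adjusted p = 0.00726). Prdx4 was higher at 2 h (136 and 129 CPM against 122 and 101 CPM, log2 0.25, SE 0.08, adjusted p = 0.0193) and was not called at 7 h (log2 -0.14, SE 0.08, adjusted p = 0.141). Prdx3 at 7 h had 78.9 and 77.7 CPM against 72.3 and 64.5 CPM (log2 0.19, SE 0.07, adjusted p = 0.0187), a call lost in 7 of 11 alternatives. Prdx5 was called at neither duration (log2 -0.05 at 2 h and 0.04 at 7 h, each with SE 0.07).

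In all, H2O2 for 2 h raised 4 of the 10 genes and lowered 2, where 53.9% of all genes tested were called. At 7 h it raised 7 and lowered 1, where 70.5% were called. By direction, 27.3% of all genes were called higher and 26.5% lower at 2 h, and 39.4% and 31.1% at 7 h. Between 7 h and 2 h of H2O2, 7 were higher at 7 h and 1 lower (Prdx4, log2 -0.38, SE 0.08, adjusted p = 0.000701), beside 73.4% of all genes. Of all genes, 37.3% were called higher and 36.1% lower between these durations. The share of members called in either direction thus stood near that of all genes tested. Ordered from the largest rise at 7 h among 13256 genes, Nqo1 ranked 1136, Srxn1 1200 and Txnrd1 1264.

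Calls on the small H2O2 changes were lost or gained without single libraries, in several cases with the fold change nearly the same. At 2 h, Txn1 lost its call without control replicate 1 (log2 -0.21) or 2 (log2 -0.20), Prdx2 without control replicate 1 (-0.15) or H2O2 2 h replicate 2 (-0.20), and Prdx4 without control replicate 2 (0.11) or H2O2 2 h replicate 1 (0.14). Prdx6 at 2 h lost its call without control replicate 1 (0.21), control replicate 2 (0.19) or H2O2 2 h replicate 1 (0.12), and Prdx1 at 2 h gained one without control replicate 1 (0.18). At 7 h, Txn1 (0.14) and Prdx1 (0.18) lost theirs without H2O2 7 h replicate 1. Prdx3 at 7 h lost its call without control replicate 2 (0.11), H2O2 7 h replicate 1 (0.10) or H2O2 7 h replicate 2 (0.20). Prdx4 at 7 h gained a call without control replicate 2 (-0.27).

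Fibroblast markers were also lower at 7 h of H2O2. The summed TPM of 10 of them (collagens, Vim, Fn1 and others) was 5039 to 5087 there against 10880 to 10920 in the control and 10110 to 10400 at 2 h, and 9810 to 10730 at 7 h of KCl. All 10 markers were detected, 9 of them above 10 TPM in every library. The muscle markers Myod1 and Des summed to 4.52 to 5.35 TPM at 7 h against 0.13 to 0.27 TPM in the control, with Myod1 at no more than 0.05 TPM in any library. The part of either shift in the results at 7 h was not tested. TPM in bulk RNA is a share of a library. Fewer cells of a type, less marker RNA per cell and more RNA of other genes therefore cannot be told apart.

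**Figure D2:**
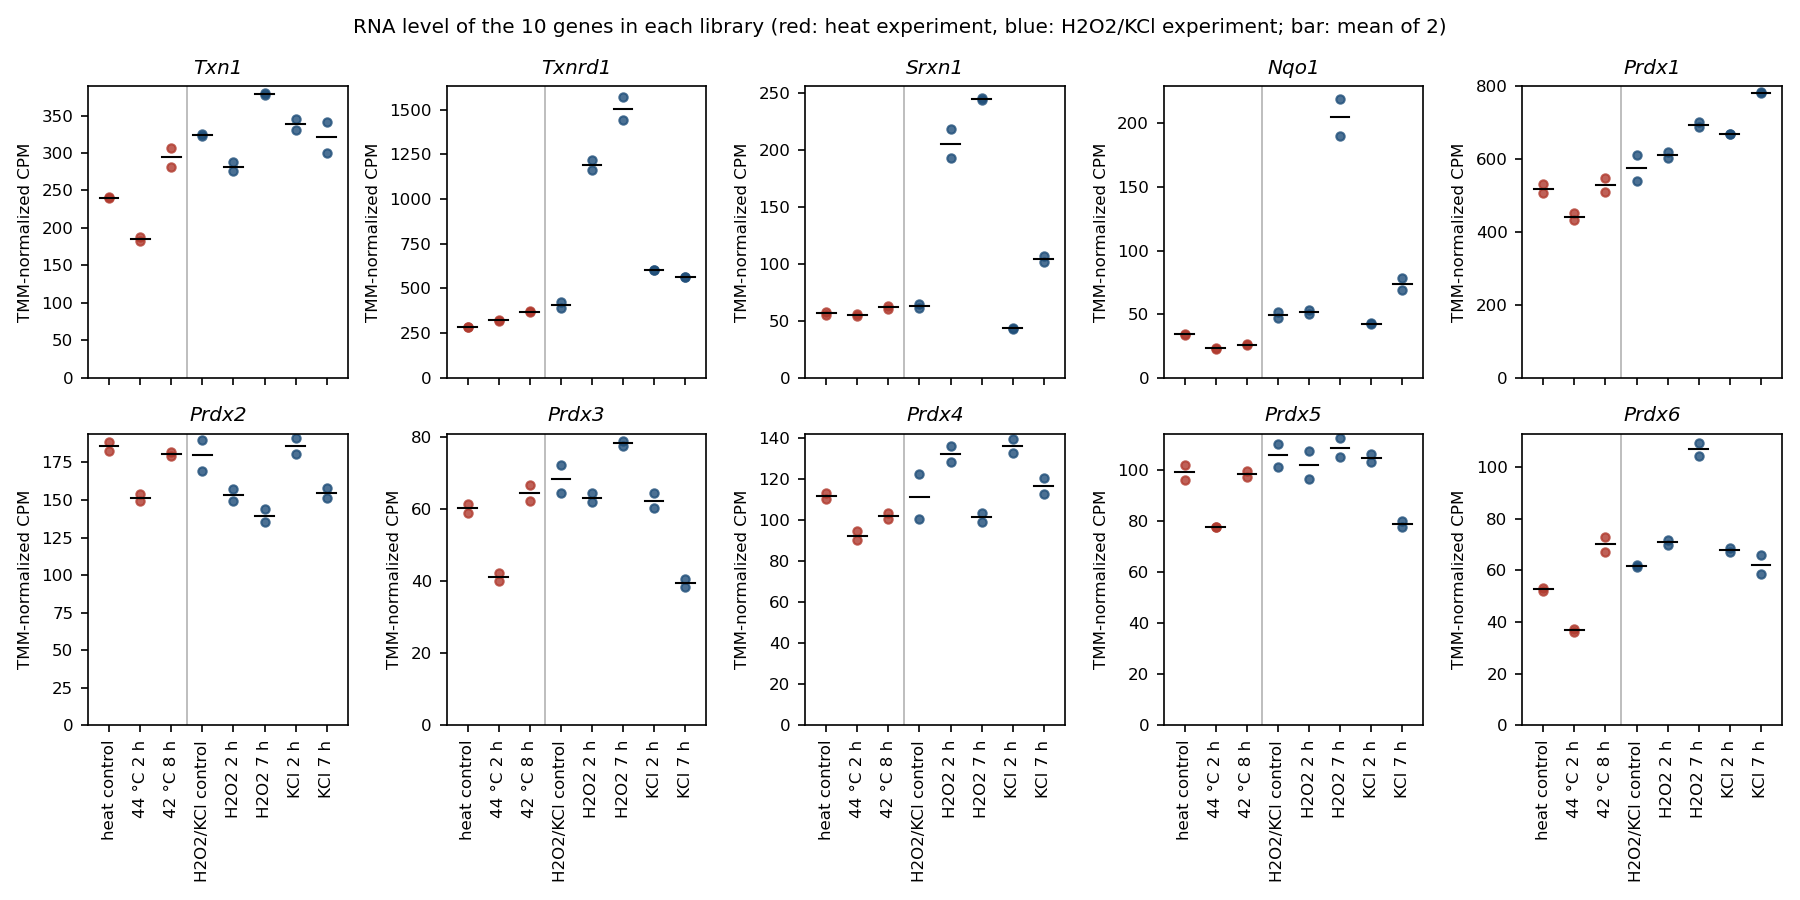
RNA level in TMM-normalized CPM (linear axes from 0) of each gene in each library, 3 heat groups in red and 5 H2O2/KCl groups in blue, with bars at the mean of 2 libraries. Txnrd1 and Srxn1 are high at both H2O2 durations, Nqo1 at 7 h and not at 2 h of H2O2, and the peroxiredoxins span a narrower range.

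KCl, the osmotic stress, gave another pattern. Txnrd1 had 605 CPM in both libraries at 2 h and 566 and 564 CPM at 7 h, above the control at both durations (log2 0.57, SE 0.06, adjusted p = 3.73e-06, and log2 0.47, SE 0.06, adjusted p = 1.27e-05). Srxn1 first went down and then up: 44.0 and 42.8 CPM at 2 h (log2 -0.53, SE 0.07, adjusted p = 2.03e-05), then 102 and 107 CPM at 7 h (log2 0.73, SE 0.07, adjusted p = 3.4e-07). Neither duration overlapped the control or the other, and 7 h against 2 h of KCl differed by log2 1.27 (SE 0.07, adjusted p = 2.18e-09). Nqo1 had 43.0 and 41.9 CPM at 2 h (log2 -0.21, SE 0.09, adjusted p = 0.0511; called lower in 5 of 11 alternatives, with adjusted p of 0.0108 to 0.296 over them) and 69.3 and 78.0 CPM at 7 h (log2 0.58, SE 0.08, adjusted p = 2.28e-05).

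The peroxiredoxins split by gene under KCl. Prdx1 rose to 669 CPM in both libraries at 2 h (log2 0.22, SE 0.06, adjusted p = 0.00968) and 784 and 782 CPM at 7 h (log2 0.44, SE 0.06, adjusted p = 2.25e-05). Prdx3, the mitochondrial enzyme, had 60.3 and 64.4 CPM at 2 h and fell to 40.7 and 38.4 CPM at 7 h, below every other library of the experiment (log2 -0.79, SE 0.07, adjusted p = 2.19e-07). Prdx5 fell from 101 and 110.3 CPM to 80.2 and 77.6 CPM at 7 h (log2 -0.42, SE 0.07, adjusted p = 8.18e-05). Prdx2 was lower at 7 h (log2 -0.22, SE 0.07, adjusted p = 0.0111; not called without control replicate 1, log2 -0.14, or KCl 7 h replicate 1, log2 -0.19), and Prdx4 was higher at 2 h (log2 0.29, SE 0.08, adjusted p = 0.00782; not called without control replicate 2, log2 0.15). Txn1 and Prdx6 were called at neither duration, with log2 values at 2 h of 0.06 and 0.14, and at 7 h of -0.01 and 0.01.

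KCl for 2 h thus raised 3 members and lowered 1 (54.2% of all genes called), and for 7 h raised 4 and lowered 3 (68.8% called). Between its durations 3 were higher at 7 h and 4 lower, beside 68.8% of all genes. Without control replicate 2 the Prdx1 rise at 2 h was not called (log2 0.13), while Nqo1 (log2 -0.28) and Prdx3 (log2 -0.215) were called lower at 2 h.

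H2O2 was set against KCl at equal durations, since both share a control. At 2 h Srxn1 differed most, by log2 2.24 in favour of H2O2 (SE 0.07, adjusted p = 2.68e-11), followed by Txnrd1 (log2 0.98, SE 0.06, adjusted p = 2.21e-08) and Nqo1 (log2 0.29, SE 0.09, adjusted p = 0.0133). Txn1 (log2 -0.26, SE 0.07, adjusted p = 0.00449) and Prdx2 (log2 -0.28, SE 0.07, adjusted p = 0.00367) were lower under H2O2, and 5 members were not called, beside 51.3% of all genes called. At 7 h, 7 members were higher and 2 lower under H2O2, beside 78.4% of all genes: Nqo1 by log2 1.48 (SE 0.08), Txnrd1 by 1.41 (SE 0.06), Srxn1 by 1.23 (SE 0.07), Prdx3 by 0.98 (SE 0.07), Prdx6 by 0.78 (SE 0.06), Prdx5 by 0.47 (SE 0.07) and Txn1 by 0.24 (SE 0.07). Prdx1 (-0.17, SE 0.06) and Prdx4 (-0.20, SE 0.08) were lower. Of all genes, 41% were called higher and 37.4% lower under H2O2 at 7 h. The Nqo1 call at 2 h was lost without H2O2 2 h replicate 1 (log2 0.23) or KCl 2 h replicate 2 (0.26). At 7 h the call of Prdx1 was lost without H2O2 7 h replicate 2 (-0.16), KCl 7 h replicate 1 (-0.17) or KCl 7 h replicate 2 (-0.18), and that of Prdx4 without H2O2 7 h replicate 1 (-0.18), H2O2 7 h replicate 2 (-0.23) or KCl 7 h replicate 2 (-0.16). Txn1 at 7 h was not called without KCl 7 h replicate 2 (0.15).

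Heat at 44 °C for 2 h lowered most of the set. It lowered 8 of the 10 genes, raised 1 and left 1 uncalled, where 71% of all genes tested were called and 35.7% were called lower. Prdx3 went from 59.0 and 61.5 CPM to 42.1 and 40.1 CPM (log2 -0.55, SE 0.05, adjusted p = 4.39e-07), Nqo1 from 34.7 and 33.4 CPM to 22.7 and 23.3 CPM (log2 -0.56, SE 0.06, adjusted p = 8.4e-07), and Prdx6 from 52.1 and 53.2 CPM to 37.3 and 36.1 CPM (log2 -0.52, SE 0.05, adjusted p = 9.9e-07). In each of the 8 genes both heated libraries lay below both controls, which are the libraries these calls compare. The share of all genes separated in this way was not computed. The other falls ran from log2 -0.23 (Prdx1) to -0.38 (Txn1). Txnrd1 was the exception, with 281 and 284 CPM in the control and 319 and 322 CPM at 44 °C (log2 0.18, SE 0.04, adjusted p = 0.000635), and Srxn1 overlapped its control (log2 -0.03, SE 0.05, adjusted p = 0.597). The fibroblast markers summed to 9621 to 9904 TPM at 44 °C and 11050 to 11390 TPM at 42 °C against 13240 to 13410 TPM in the heat control, whose part in these results was not tested.

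At 42 °C for 8 h the set divided, with 4 genes higher, 2 lower and 4 uncalled (63.6% of all genes called). Txnrd1 reached 366 and 374 CPM (log2 0.39, SE 0.04, adjusted p = 7.51e-07), Prdx6 72.9 and 67.2 CPM (log2 0.41, SE 0.05, adjusted p = 9.17e-06) and Txn1 307 and 282 CPM (log2 0.29, SE 0.04, adjusted p = 6.08e-05). Nqo1 stayed below the control at 25.9 and 26.1 CPM (log2 -0.39, SE 0.06, adjusted p = 4.48e-05). The small calls of Srxn1 (log2 0.13, SE 0.05, adjusted p = 0.0321) and Prdx4 (log2 -0.13, SE 0.04, adjusted p = 0.0149) were each lost without heat control replicate 1 (0.10 and -0.11) or 42 °C replicate 2 (0.10 and -0.11). On log2(TPM + 1), where the median of all genes moved by -0.16, Txn1 was not called (0.10, adjusted p = 0.063 by limma), Srxn1 was at -0.06, and Prdx1 (-0.16), Prdx2 (-0.23) and Prdx5 (-0.20) were called lower. On that scale 67.8% of 11717 genes were called, 1898 of them higher and 6043 lower.

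Between the heat treatments all 10 members were higher at 42 °C for 8 h than at 44 °C for 2 h, beside 75.1% of all genes called and 37.9% called higher. The differences ran from log2 0.14 for Prdx4 to 0.93 for Prdx6 (36.1 to 37.3 CPM against 67.2 to 72.9 CPM; SE 0.05, adjusted p = 1.51e-09), with Txn1 at 0.67 (SE 0.05) and Prdx3 at 0.65 (SE 0.05). Temperature and duration changed together, so their parts cannot be told apart. On log2(TPM + 1), which has no TMM normalization, the median of all genes moved by -0.21. There Txnrd1, Srxn1, Nqo1, Prdx2 and Prdx4 turned to the other direction and 4 members were called, 3 of them higher at 42 °C. On that scale 77.8% of 11717 genes were called, 2707 of them higher at 42 °C and 6406 lower. Nqo1 lost its call without 44 °C replicate 1 (0.15), 42 °C replicate 1 (0.18) or 42 °C replicate 2 (0.17), Srxn1 without 42 °C replicate 2 (0.13), and Prdx4 without 44 °C replicate 2 (0.11) or 42 °C replicate 1 (0.12).

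**Figure D3:**
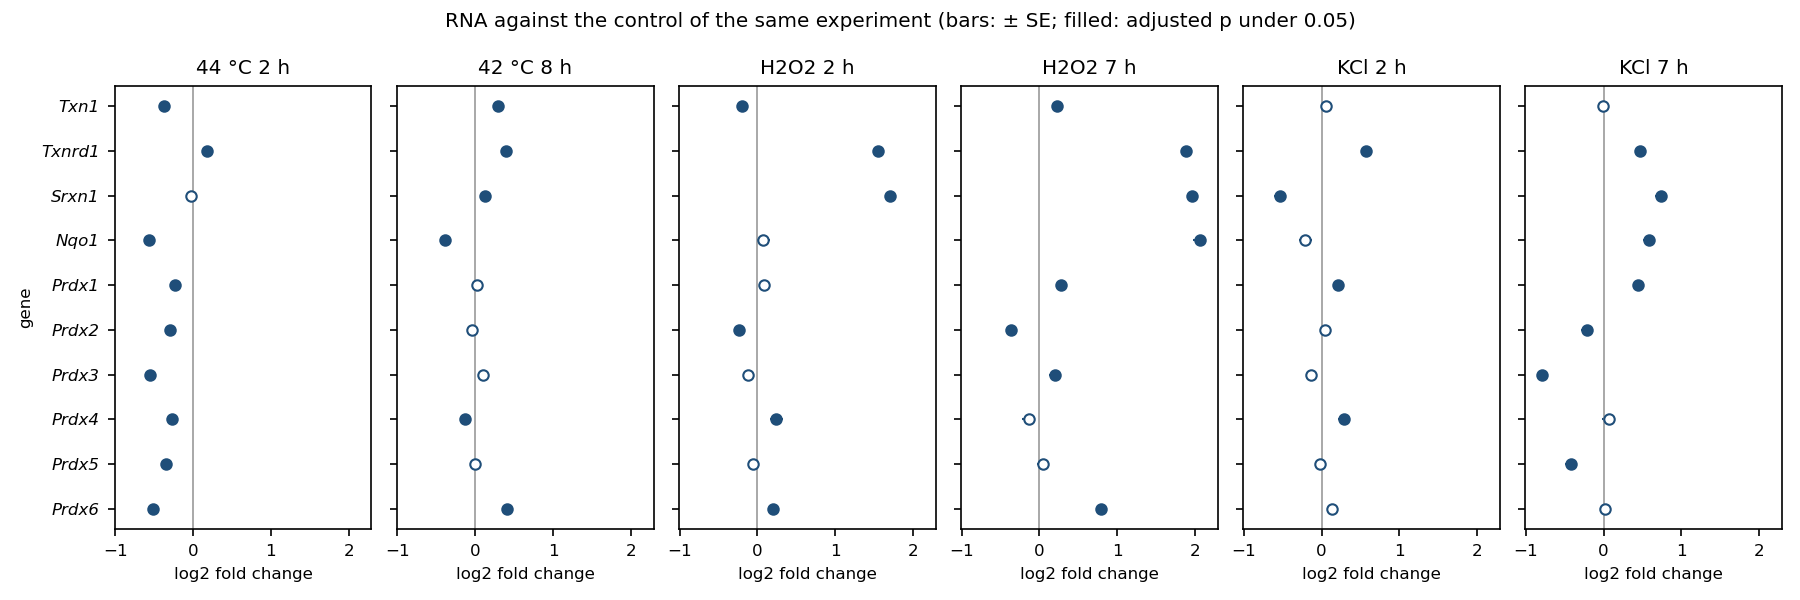
RNA log2 fold change of each gene against the control of its experiment, 6 panels, bars ± SE, filled points called at an adjusted p under 0.05. Txnrd1 lies to the right of 0 in all 6 panels, Srxn1 stands out at both H2O2 durations and Nqo1 at 7 h, and 8 filled points lie to the left of 0 at 44 °C.

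Whether the response to H2O2 differed from that to heat was tested as a difference of effects, each against its own control. At 2 h the H2O2 effect exceeded the 44 °C effect for 9 members and fell below it for none (58% of all genes called, 33.7% in that direction). Srxn1 differed by log2 1.78 (SE 0.09, adjusted p = 1.89e-11), Txnrd1 by 1.41 (SE 0.07, adjusted p = 5.95e-11), Prdx6 by 0.77 (SE 0.09, adjusted p = 7.66e-07) and Nqo1 by 0.68 (SE 0.11, adjusted p = 4.06e-05). For the longer treatments, 7 h of H2O2 against 8 h at 42 °C, 4 members were higher and 1 lower (64.8% of all genes called). Nqo1 differed by log2 2.39 (SE 0.11, adjusted p = 2.13e-12), Srxn1 by 1.77 (SE 0.09, adjusted p = 4.81e-12), Txnrd1 by 1.44 (SE 0.07, adjusted p = 1.18e-11) and Prdx6 by 0.32 (SE 0.08, adjusted p = 0.00262), while Prdx2 differed by -0.38 (SE 0.08, adjusted p = 0.000649). The Txn1 difference at 2 h (0.22, SE 0.09, adjusted p = 0.0358) was lost in 11 of 14 alternatives and that of Prdx5 (0.34) in 4, among them without control replicate 1 of the H2O2/KCl experiment (0.20) and without heat control replicate 2 (0.22). Prdx1, not called for the longer treatments (0.19, adjusted p = 0.0559), was called in 9 of 14 alternatives.

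Ratios within a library show how the balance of the set shifted without reference to other genes. The ratio of Txnrd1 TPM to Txn1 TPM, reductase to its substrate, was 0.35 and 0.37 in the RNA control, 1.27 and 1.15 after 2 h of H2O2, and 1.09 and 1.19 after 7 h. KCl gave 0.50 and 0.53 after 2 h, then 0.47 and 0.54 after 7 h. With heat it went from 0.34 in both controls to 0.49 and 0.50 (44 °C), or 0.34 and 0.38 (42 °C). In footprints the same ratio was 0.13 and 0.16 in the control, 0.14 and 0.16 after 2 h of H2O2, then 0.35 and 0.30 after 7 h, so it was above the control at 7 h and overlapped it at 2 h.

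The ratio of Srxn1 to the summed Prdx1 to Prdx6, a sum over all 6 peroxiredoxins and not over substrates of Srxn1 alone, was higher after H2O2 in RNA: 0.025 and 0.026 in the control, 0.084 and 0.078 after 2 h of H2O2, then 0.090 and 0.091 after 7 h. KCl gave 0.016 in both libraries after 2 h, below the control, where the Txnrd1 to Txn1 ratio lay above it, and 0.037 and 0.039 after 7 h, above the control. The summed RNA of the 6 peroxiredoxins itself stayed within 1891 to 2065 TPM over the 10 libraries of this experiment. Prdx1 made up 48.4% and 46.9% of that sum in the control and 59.5% and 59.2% at 7 h of KCl, where Prdx2, Prdx3 and Prdx5 fell.

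**Figure D4:**
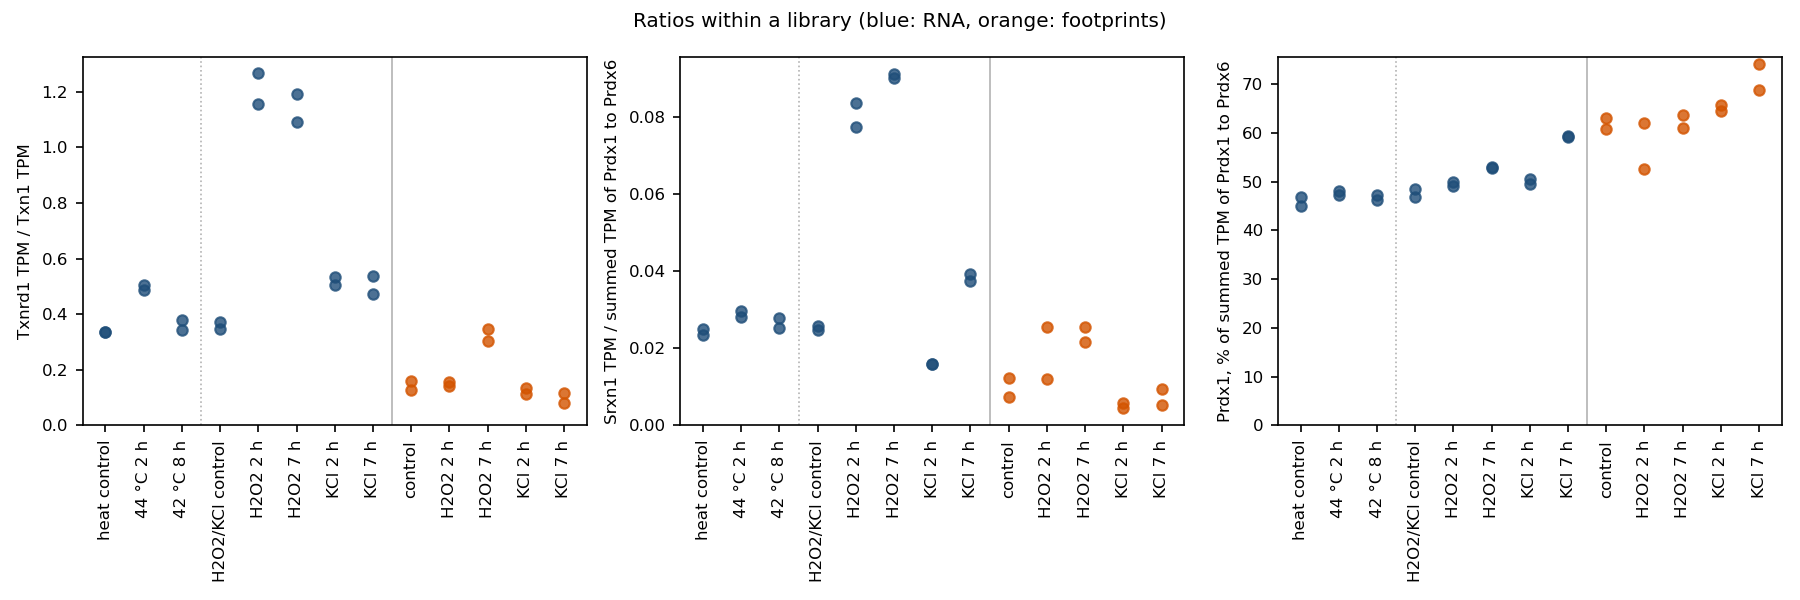
Ratios within each library, RNA in blue and footprints in orange, on linear axes from 0: Txnrd1 TPM over Txn1 TPM, Srxn1 TPM over the summed TPM of Prdx1 to Prdx6, and Prdx1 as a percent of that sum. At 2 h of H2O2 the first ratio is 1.15 to 1.27 in RNA and 0.14 to 0.16 in footprints, which is the control level of the latter.

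Footprints showed less of this at 2 h. No member was called at 2 h of H2O2 by edgeR (1.91% of all genes called), where 1 member, Srxn1, was under 0.05 before adjustment, and DESeq2 called none. For unadjusted p-values, here and below, the share of all genes under 0.05 was not computed. Txnrd1 had 299 and 417 CPM in control footprints and 392 and 399 CPM at 2 h of H2O2, inside the spread of the control (log2 0.14, SE 0.23, adjusted p = 0.809). At 7 h it had 762 and 990.5 CPM, clear of the control (log2 1.29, SE 0.23, adjusted p = 0.00105) and of 2 h (log2 1.15, SE 0.23, adjusted p = 0.00239). Srxn1 rested on only 17 to 111 footprint counts per library. It had 9.29 and 13.2 CPM in the control, 28.0 and 16.5 CPM at 2 h, which did not overlap the control (log2 0.91, SE 0.35, adjusted p = 0.204), and 23.6 and 32.0 CPM at 7 h (log2 1.31, SE 0.33, adjusted p = 0.00976).

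Nqo1 followed its RNA in time, with 20.5 and 29.1 CPM in control footprints, 18.7 and 22.9 CPM at 2 h and 47.0 and 56.7 CPM at 7 h (log2 1.06 against control, SE 0.31, adjusted p = 0.0212). Against 2 h the 7 h value was log2 1.29 higher (SE 0.32, adjusted p = 0.00945). These 3 genes were the members called at 7 h of H2O2 (27.7% of all genes called), and Txnrd1 and Nqo1 those called between 7 h and 2 h (29.8%). Against control, Srxn1 lost its call without control replicate 1 (1.03, adjusted p = 0.0918) or H2O2 7 h replicate 2 (1.03, adjusted p = 0.11), and Nqo1 without control replicate 1 (0.79), H2O2 7 h replicate 1 (1.15) or H2O2 7 h replicate 2 (0.88; between the durations 1.11 without it).

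Under KCl no member was called in footprints, at 2 h (6.86% of all genes called), at 7 h (20.4%) or between its durations (20.6%). By edgeR 0 members were under an unadjusted p of 0.05 at 2 h, 1 at 7 h (Prdx1) and 0 between durations, and DESeq2 called none in any of these. Without KCl 2 h replicate 1, Prdx3 was called between durations (log2 -0.81, adjusted p = 0.0498). Against control, the highest value was that of Prdx1 at 7 h (1232 and 1563 CPM against 1057 and 889 CPM, log2 0.52, SE 0.22, adjusted p = 0.103) and the lowest value that of Srxn1 at 2 h (5.70 and 7.65 CPM, log2 -0.75, SE 0.39, adjusted p = 0.308). The errors of footprint fold changes were about 0.17 to 0.40 on the log2 scale, against 0.06 to 0.09 for RNA of this experiment.

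**Figure D5:**
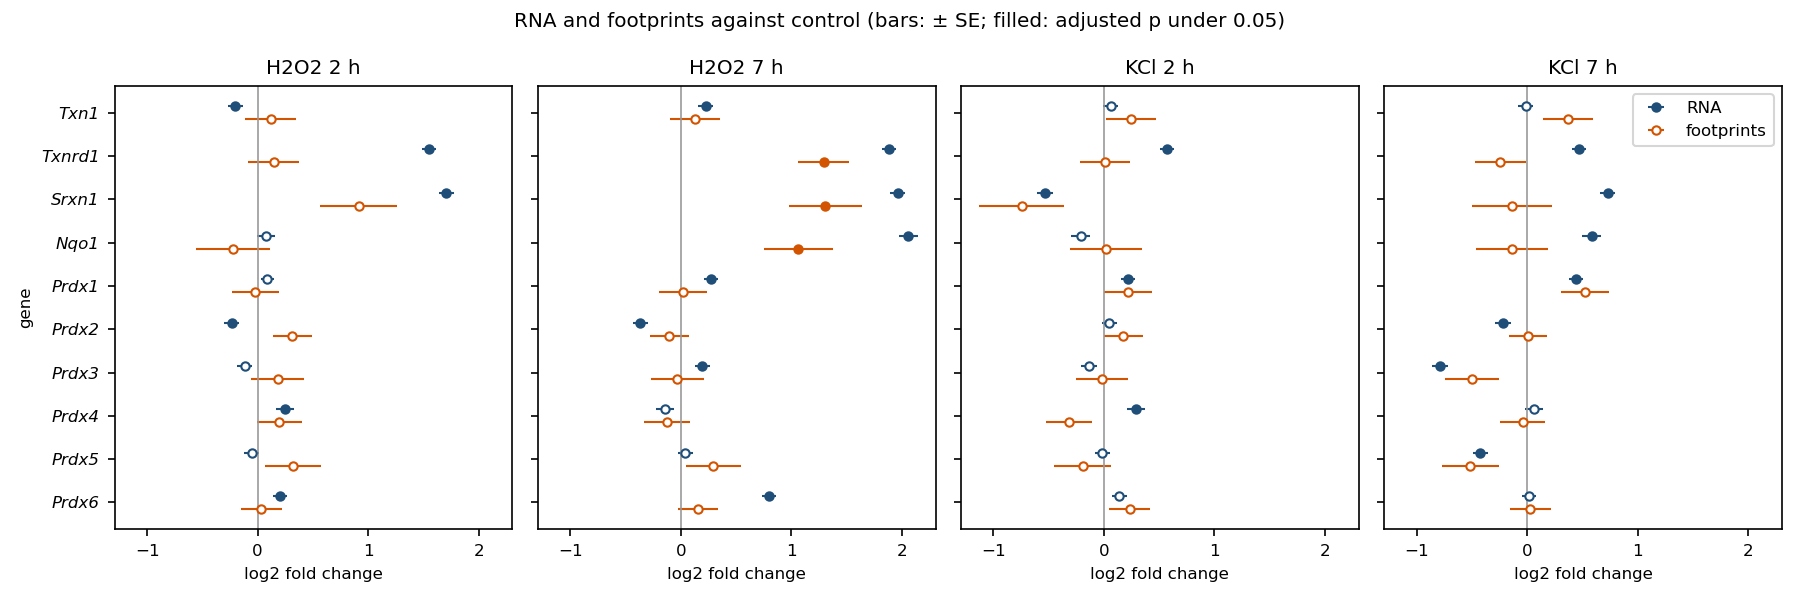
Log2 fold change against control of RNA (blue) and footprints (orange) for each gene under H2O2 and KCl, bars ± SE, filled points called at an adjusted p under 0.05. At 2 h of H2O2 the RNA point of Txnrd1 is at 1.55 and its footprint point at 0.14, and at 7 h both are called.

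Translational efficiency is footprints relative to RNA of the same gene. RNA and footprints were normalized apart, so its changes are relative to other genes and not absolute. It was tested as an interaction over the 20 libraries of the experiment. At 2 h of H2O2 that of Txnrd1 was 2.71-fold lower than in the control (log2 -1.44, SE 0.24, adjusted p = 0.00135), rank 268 from the lowest of 10480 genes. It was the only member called there by edgeR (11.4% of all genes called), and it kept its direction and its call in all 16 alternatives, with log2 values from -1.66 to -1.19. Srxn1 had a log2 change of -0.90 at 2 h (SE 0.30, adjusted p = 0.0587), and Prdx2 of 0.51 (SE 0.17, adjusted p = 0.0605). Srxn1 was called with DESeq2 (-0.88, adjusted p = 0.0199) and without H2O2 2 h footprint replicate 1 (-1.19) or control footprint replicate 1 (-1.15). Prdx2 was called with DESeq2 (0.51, adjusted p = 0.00501) and without H2O2 2 h footprint replicate 2 (0.57). The H2O2 2 h footprint libraries were the shallowest and the deepest, at 1460751 and 5168537 counts.

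At 7 h of H2O2, Nqo1 (log2 -0.99, SE 0.29, adjusted p = 0.0417) and Prdx6 (log2 -0.64, SE 0.16, adjusted p = 0.0208) were lower in translational efficiency (9.27% of all genes called), while Txnrd1 was not called (log2 -0.59, SE 0.24, adjusted p = 0.137). The Nqo1 call was lost in 10 of 16 alternatives (log2 -1.23 to -0.70) and that of Prdx6 in 8 (-0.77 to -0.44). Those for Nqo1 included leaving out any RNA or footprint library of the control or of 7 h other than control footprint replicate 1, and those for Prdx6 the same libraries other than H2O2 7 h footprint replicate 2. Between 7 h and 2 h of H2O2, a comparison added after the values were seen, Txnrd1 was higher at 7 h by log2 0.85 (SE 0.24, adjusted p = 0.0419; 7.2% of all genes called), a call lost in 8 of 16 alternatives (0.65 to 1.04), among them leaving out any RNA library of either duration, H2O2 2 h footprint replicate 1 (0.86) or H2O2 7 h footprint replicate 2 (0.65). Prdx6 was called lower between these durations with DESeq2 (-0.47) and without H2O2 2 h footprint replicate 1 (-0.55). Under KCl no member was called at 2 h (12.8% of all genes called), at 7 h (5.57%) or between durations (6.84%, also added later). Txnrd1 had log2 values of -0.57 (SE 0.24, adjusted p = 0.132) and -0.68 (SE 0.24, adjusted p = 0.11) at 2 h and 7 h of KCl. Without control footprint replicate 1 these were called (-0.80 and -0.90), as was its value at 7 h of H2O2 (-0.81). By edgeR the members under an unadjusted p of 0.05 numbered 2 at 2 h, 3 at 7 h and 2 between durations of KCl, without a share of all genes to set beside them. DESeq2 called 0, 0 and 1, beside 10.3% of all genes at 7 h and 11.8% between durations. The member it called was Nqo1 (-0.94, adjusted p = 0.0467). Prdx4 at 2 h of KCl (-0.61, SE 0.22, adjusted p = 0.0808) was called without control footprint replicate 2 (-0.78) or KCl 2 h footprint replicate 1 (-0.79), and Nqo1 between durations without the latter (-1.34).

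Other genes of the pathway were read from lists. Of 25 further genes of the thioredoxin and glutaredoxin systems, H2O2 raised 6 and lowered 6 at 2 h, and raised 9 and lowered 10 at 7 h. That is 48% and 76% of the list called, beside 53.9% and 70.5% of all genes, with medians of log2 -0.09 and 0.01 against -0.00095 and 0.075 over all genes. Sesn2, a sestrin, had the largest rise at both durations (log2 3.76, SE 0.09, and 3.74, SE 0.09), and Nxn, nucleoredoxin, rose by 2.02 (SE 0.08) at 7 h. Txnip, which binds thioredoxin and inhibits it, fell at 2 h of H2O2 (-2.22, SE 0.11), at 2 h of KCl (-3.50, SE 0.13), at both 7 h treatments (-0.85, SE 0.10, and -1.44, SE 0.10) and at 42 °C (-1.10, SE 0.07), and rose at 44 °C (0.51, SE 0.06). At 7 h of KCl 14 of the 25 fell and 4 rose (72% called, beside 68.8% of all genes and 31.6% called lower; median log2 -0.25 against 0.039), with Txnrd3, a further thioredoxin reductase, at -1.43 (SE 0.10).

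Of 25 other NRF2 targets and regulators, 12 rose and 3 fell at 2 h of H2O2, and 18 rose and 4 fell at 7 h. Of all genes, 27.3% were called higher and 26.5% lower at 2 h, and 39.4% and 31.1% at 7 h. The medians of the list were log2 0.18 and 0.67, against -0.00095 and 0.075 over all genes. Slc7a11, which imports cystine, led at both durations (3.97, SE 0.12, and 4.09, SE 0.12), with Hmox1, heme oxygenase, at 3.26 (SE 0.09) at 2 h and the glutathione transferase Gsta4 at 3.58 (SE 0.14) at 7 h. Keap1, the inhibitor of NRF2, fell by 0.38 (SE 0.07) and 0.64 (SE 0.07). At 7 h of KCl 18 of these rose and 4 fell as well (median 0.33 against 0.039 over all genes, of which 37.2% were called higher and 31.6% lower), led by Gclc of glutathione synthesis (1.33, SE 0.06), while Slc7a11 fell by 0.63 (SE 0.15). At 44 °C, where Nqo1 fell, 10 rose and 10 fell (71% of all genes called), with Gclc at 1.33 (SE 0.05) and Slc7a11 at -1.89 (SE 0.09), and at 42 °C 11 rose and 9 fell (63.6% of all genes called), with Nfe2l2, which encodes NRF2, at -1.13 (SE 0.04) and Slc7a11 at -3.48 (SE 0.11).

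Txnrd1 is a selenoprotein, so a list of 10 genes of selenoprotein synthesis and other selenoproteins was read with it, of which 9 were tested. None of the 9 rose at 7 h of KCl and 7 fell, where 31.6% of all genes were called lower, with Pstk at -1.98 (SE 0.13) and Eefsec, the elongation factor for selenocysteine, at -1.63 (SE 0.12). Under H2O2 1 rose and 4 fell at 2 h, and 2 rose and 3 fell at 7 h (55.6% of the 9 called at each, beside 53.9% and 70.5% of all genes), where Gpx1, a selenium-dependent glutathione peroxidase, was at -0.51 (SE 0.06). At 44 °C 2 rose and 7 fell, beside 35.4% and 35.7% of all genes. At 42 °C 5 rose and 1 fell, beside 31.7% and 31.9%. Medians of this list were log2 -0.33 at 7 h of KCl and -0.28 at 44 °C, against 0.039 and -0.00034 over all genes.

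The genes whose RNA pattern was most like that of a member were taken by Pearson correlation of group-mean log2 CPM over the 8 RNA groups, among 9333 genes, as a description. For Txnrd1 these were Zdhhc13 (r = 0.982), Sbsn (0.981) and Hacd2 (0.969), for Srxn1 Il4ra (0.972), Ctage5 (0.942) and Rab12 (0.94), and for Nqo1 Qpctl (0.985), Cstb (0.984) and Rabggta (0.982). For Prdx1 they were Cyld (0.975), Anxa5 (0.975) and Sema3c (0.971). Within the set, Srxn1 and Txnrd1 had r = 0.881. The 8 means share libraries and normalization, and the experiments differ in their controls.

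RNA libraries held 24441877 to 45244430 expected counts and footprint libraries 1460751 to 5168537, as summed over all genes of the tables. No replicate pair held identical values, and the chi-square per gene between replicates was 3.16 to 12 for RNA and 5.41 to 11.1 for footprints, above counting noise. Of the markers of other cell types, all 4 of blood stayed under 1 TPM, and the epithelial and endothelial lists summed to at most 19.6 and 3.18 TPM in any library. Prdx6b, a copy of Prdx6 in the tables, had 0 counts in every RNA library against at least 1247 for Prdx6. How reads shared by near-identical copies were divided is not known here.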

How the data were processed

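RNA (16 libraries) and ribosome footprints (10 libraries) of NIH3T3 cells were analysed from the tables the authors deposited. Per the submitters' processing notes, reads were handled with STAR, Bowtie and RSEM on mm10; versions and settings: not given in the sources used here. The authors deposited RSEM expected counts, which are whole numbers here, and TPM per gene. For each pair of neighbouring genes they also deposited calls of transcription running past a gene's end, calls of such transcription reaching the next gene, and an estimate of the latter, a ratio (formula: not given in the sources used here). A further 12 footprint columns match no labelled sample and were not used.

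Expected counts were tested with edgeR 4.0.16 in R 4.3.3 (filterByExpr, TMM within each experiment and kind of library, quasi-likelihood F test, Benjamini-Hochberg over all genes tested, threshold 0.05). The fits held 6 heat RNA, 10 H2O2/KCl RNA, 16 RNA (differences of effects), 10 footprint and 20 RNA and footprint libraries (translational efficiency). The standard error is the log2 fold change divided by the square root of F. The script was tested on simulated data. Alternatives were DESeq2 1.42.0 and its size factors, limma 3.58.1 on log2(TPM + 1) for genes with at least 1 TPM in 2 libraries, limma voom, no filter, only the groups compared, a replicate block, a log2 change of at least 1, and leaving out each library.

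All 10 members are named. In each list at most the 2 largest rises and 2 largest falls called against a control are named, and for 4 members the 3 most similar genes with a mean log2 CPM of at least 3. The members and lists were chosen with earlier results of these data known. Promoter windows and positions come from RefSeq tables of GRCm38.p6, in which 19885 of 20430 symbols were found.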

Additional observations from a re-analysis of the deposited data

Results flagged for a closer look

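Differences between 7 h and 2 h of a stress were tested directly with edgeR, and 15 of them in RNA and 2 in footprints passed the adjusted threshold among the 10 genes. They are listed because the effect of 1 stress differed between its durations. Of all genes tested in RNA, 73.4% passed between durations of H2O2 and 68.8% between those of KCl. In footprints 29.8% and 20.6% passed. Under H2O2, RNA was higher at 7 h by log2 1.98 for Nqo1 (adjusted p = 5.21e-11), 0.59 for Prdx6 (adjusted p = 1.18e-06), 0.43 for Txn1 (adjusted p = 4.73e-05), 0.34 for Txnrd1 (adjusted p = 0.000229), 0.31 for Prdx3 (adjusted p = 0.00092), 0.25 for Srxn1 (adjusted p = 0.00282) and 0.18 for Prdx1 (adjusted p = 0.018). Prdx4 was lower at 7 h of H2O2, at log2 -0.38 (adjusted p = 0.000701). The Prdx1 difference lost its call without H2O2 2 h replicate 1 (0.18), H2O2 2 h replicate 2 (0.16) or H2O2 7 h replicate 1 (0.15).

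Under KCl, RNA was higher at 7 h by log2 1.27 for Srxn1 (adjusted p = 2.18e-09), 0.79 for Nqo1 (adjusted p = 1.57e-06) and 0.23 for Prdx1 (adjusted p = 0.00551). It was lower at 7 h for Prdx3 (log2 -0.65, adjusted p = 1.75e-06), Prdx5 (log2 -0.41, adjusted p = 0.000125), Prdx2 (log2 -0.27, adjusted p = 0.00341) and Prdx4 (log2 -0.23, adjusted p = 0.0246). The Prdx4 difference lost its call without KCl 2 h replicate 1 (-0.19) or KCl 7 h replicate 1 (-0.18), and Prdx6 gained one without the latter (-0.21).

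In footprints, H2O2 gave log2 1.15 for Txnrd1 (adjusted p = 0.00239) and 1.29 for Nqo1 (adjusted p = 0.00945) between 7 h and 2 h, the latter not called without H2O2 7 h replicate 2 (1.11, adjusted p = 0.0744).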

How the results depend on the processing

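Counts of members called moved most when a log2 change of at least 1 was also required, a stricter rule by construction. Then 0 were called at 44 °C (11% of all genes), at 42 °C (7.92%) and between the heat treatments (15%). At 2 h and 7 h of KCl 0 were called (12.7% and 18.4%). H2O2 had 2 at 2 h and 3 at 7 h (13.3% and 23.3%). Between durations 1 was called for H2O2 (26.5%) and 1 for KCl (21.8%). Between H2O2 and KCl 1 and 3 were called at 2 h and 7 h (12.6% and 33.9%). The differences from heat gave 2 and 3 (17% and 24.4%). Translational efficiency gave 0 at 7 h of H2O2 (4.71%) and between its durations (3.39%). On log2(TPM + 1), 4 were called between the heat treatments (77.8% of all genes) and 0 in translational efficiency at 7 h of H2O2 (6.51%). On that scale signs turned for Srxn1 (-0.056) and Prdx1 (-0.16) at 42 °C, and for Prdx4 at 7 h of KCl (-0.030). They also turned for Txnrd1 (-0.043), Srxn1 (-0.088), Nqo1 (-0.076), Prdx2 (-0.00036) and Prdx4 (-0.11) between the heat treatments. Prdx5 at 42 °C was at 0.0015 with DESeq2's size factors and 0.0013 with DESeq2. In translational efficiency, DESeq2 called 3 members at 2 h of H2O2, 2 between its durations (12.5% of all genes) and 1 between those of KCl (11.8%). There voom called 1 at 7 h of H2O2 (6.13%), and the groups compared alone gave 0 between durations of H2O2 (3.15%). The cause of these differences was not tested.

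Leaving out each library gave 9 to 9 members at 44 °C, 4 to 6 at 42 °C, 8 to 9 between the heat treatments, 3 to 5 and 5 to 8 at 2 h and 7 h of H2O2, 4 to 4 and 6 to 7 at 2 h and 7 h of KCl, 6 to 8 and 6 to 7 between the durations of H2O2 and KCl, 4 to 5 and 6 to 8 between H2O2 and KCl, and 7 to 9 and 5 to 6 for the differences from heat. The lowest for H2O2 were 3 without control replicate 2 at 2 h and 5 without H2O2 7 h replicate 1 at 7 h. In footprints it gave 0 to 0 at 2 h and 1 to 3 at 7 h of H2O2, 0 at both KCl durations, 1 to 2 between durations of H2O2 and 0 to 1 of KCl, and in translational efficiency 1 to 2, 0 to 3, 0 to 1 and 0 to 1 for the 4 treatments in the same order and 0 to 1 between either pair of durations. Log2 values crossed 0 among these for Prdx1 at 42 °C (-0.026 to 0.080) and 2 h of H2O2 (-0.00027 to 0.18), Prdx5 at 42 °C (-0.043 to 0.035), Prdx4 at 7 h of H2O2 (-0.27 to 0.0069) and KCl (-0.071 to 0.21), and Prdx3 in the later difference from heat (-0.0072 to 0.18).

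The labels do not say that replicate numbers pair libraries. Correlations of same-numbered deviations were -0.053 to 0.054 in H2O2/KCl RNA, -0.025 to 0.12 in heat RNA and -0.14 to 0.069 between RNA and footprints. In footprints 6 of 10 were over 0.1, at 0.198 to 0.417 among all groups but H2O2 2 h, and the 4 with H2O2 2 h were -0.38 to -0.046, so not every pair was over 0.1. The fit with the replicate block called 2 members in translational efficiency at 2 h of H2O2 against 1 (Prdx2, adjusted p = 0.0424). It also called Nqo1 lower at 2 h of KCl (-0.21, adjusted p = 0.0409), Prdx2 lower under H2O2 than KCl at 7 h (-0.15, adjusted p = 0.0377) and Prdx1 higher in the later difference from heat (0.19, adjusted p = 0.0271). Of the 124 member results that were called or crossed the threshold under an alternative, the other 120 kept their side of the threshold. Over all genes, footprint calls at 2 h of H2O2 numbered 201, with 27 from the groups compared alone, 43 by limma on log2(TPM + 1), 315 without a filter and 37 to 145 without single libraries. Without single libraries, footprint calls against control numbered 1681 to 2245 under the longer H2O2 treatment (2925 with all libraries), 211 to 421 under the shorter KCl treatment (723; 416 by limma on log2(TPM + 1), 463 from the groups alone) and 996 to 1381 under the longer one (2148). Between durations they numbered 1828 to 2518 for H2O2 (3139) and 802 to 1256 for KCl (2170). For translational efficiency in the same order, starting with the shorter H2O2 treatment, the calls were 586 to 1887 (1199; DESeq2 1786, voom 659, the groups compared alone 600), 453 to 915 (971; DESeq2 1417, voom 642), 775 to 1305 (1337; DESeq2 1820, voom 730, log2(TPM + 1) 760), 230 to 534 (584; DESeq2 1078, voom 221, log2(TPM + 1) 246), and between durations 153 to 1418 (755; DESeq2 1305, voom 296, groups alone 322) and 275 to 825 (717; DESeq2 1237, voom 298, log2(TPM + 1) 432, groups alone 445). With a log2 change of at least 1 also required, 1010 to 4491 genes were called in the RNA comparisons.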

Other observations

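The authors also deposited, for 16 RNA libraries, calls of transcription running past the end of a gene and reaching the next. Among the members, only Prdx5, Nqo1 and Prdx1 were the downstream gene of a deposited pair, so the others could not be read for this. Prdx5, next to Esrra, had calls of transcription reaching it in 3 of 16 libraries: both at 2 h of H2O2 and 1 heat control. Its deposited estimate was 0.0338 and 0.0368 at 2 h of H2O2 against 0.0092 and 0.0113 in the control, and 0.0092 to 0.0368 over all libraries. Prdx5 RNA was not called at that time. For Nqo1, next to Nob1, and Prdx1, next to Ccdc17, no library had such a call, and the estimates reached 0.00411 and 0.000784. Transcription past the end of the gene itself was called for Prdx1 in 15 of 16 libraries, for Nqo1 in 14 and for Srxn1 in 4. For Prdx2, Prdx3, Prdx5 and Prdx6 it was called in 1 each. Txn1, Txnrd1 and Prdx4 were in no deposited pair.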
